A study of Rattus norvegicus with 10 samples.

Results

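IGHV2-8 is a heavy chain variable gene of the IGHV2 subgroup, and 788 of the 1615896 productive reads of 10 rats named it as their IGHV gene. A read is here a sequence left after the authors had collapsed all sequenced copies with the same tag, and it was taken as an IGHV2-8 read where the deposited annotation called it productive and named IGHV2-8 before any other gene. The gene was selected on its read numbers in these animals, so the levels below are a description and carry no test. RNA came from total splenocytes of Wistar rats, which had all received an immunization and 3 boosts. The 5 DNP animals received keyhole limpet hemocyanin carrying dinitrophenyl (DNP), a small chemical epitope on a foreign carrier protein, and the 5 HuD animals received recombinant HuD, a neuronal RNA-binding protein. Each animal gave 1 library, made with primers in the constant domains and in the leader segments, and animals before immunization were not analysed here. DNP2 stood apart from the other DNP animals in the IGHV genes it held, so differences between the groups that rest on it are also given without it.

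An immunoglobulin heavy chain is assembled from an IGHV, an IGHD and an IGHJ gene, and the junction of these segments forms CDR3, the most diverse of the 3 complementarity-determining regions (CDRs). CDR1 and CDR2 are encoded by the IGHV gene, and the framework regions FR1 to FR4 carry the fold of the domain. Antigen-driven B-cells divide and accumulate mutations, so related cells share a CDR3 and differ at other residues. The annotation lists the only allele found, IGHV2-8*01, with the status ORF, which is given to genes with an intact reading frame but an irregular feature elsewhere. Of the 788 reads, 785 named no other gene, whereas 14.1% of all productive reads named several.

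The reads held the following CDR1 and CDR2, shown because they are the IGHV-encoded binding loops, followed by the CDR3 of the largest clone in 6 of the animals. A clone is the set of reads of 1 animal with the same IGHJ gene and the same CDR3 amino acids.
Most frequent CDR1: GFSLTGYS
The CDR1 next in frequency: GFSLTDYS
Most frequent CDR2: MRYNGDT
Largest DNP4 clone: TRSLSYTYYGYFDY
Largest DNP5 clone: ARDQANSGYLDY
Largest DNP1 clone: TREVATSFDY
Largest HuD1 clone: ARGEKTPDY
Largest HuD2 clone: TRDTMEGWFAY
Only HuD3 clone: AREYNNYFDY
Of the IGHV2-8 reads, 54.1% had GFSLTGYS, 16.2% had GFSLTDYS and 65.9% had MRYNGDT. With each clone given equal weight, GFSLTGYS took 59.7% and MRYNGDT 58.5%. With clones weighted equally, MRYNGDT was the most frequent CDR2, or tied for it, in 9 animals, and GFSLTGYS the most frequent CDR1 in 8. The exceptions were HuD5, where GFSLTAYS and VRYNGDT were most frequent over its 19 clones, and HuD3, whose only clone had GFSLSDYN. By reads, GFSLTGYS led, or tied, in 6 animals, since GFSLSGYS led in DNP3 with 26 of 54 reads and GFSLTDYS in DNP5 with 96 of 159.

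IGHV2-8 was abundant in 4 of the 5 DNP animals and rare in DNP2 and in all HuD animals. The DNP animals held 120, 2, 54, 370 and 159 IGHV2-8 reads, from DNP1 to DNP5, and the HuD animals 19, 9, 2, 7 and 46. Productive libraries ranged from 60647 to 259834 reads, so the numbers were scaled to the productive reads of each animal and are given per 1000000 productive reads (RPM). In the DNP animals the level was 861 RPM in DNP1, 16.2 RPM in DNP2, 890 RPM in DNP3, 1424 RPM in DNP4 and 1735 RPM in DNP5. In the HuD animals it was 122 RPM in HuD1, 40.1 RPM in HuD2, 11.9 RPM in HuD3, 38.0 RPM in HuD4 and 222 RPM in HuD5. The groups overlapped only through DNP2, which lay below 4 of the HuD animals. The DNP animals had a mean of 985 ± 655 RPM and the HuD animals one of 86.7 ± 86.0 RPM (SD, n = 5 each).

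Exact Poisson intervals of 95%, which cover counting error only, did not overlap between the 4 abundant animals and the other 6. This split was read from the same levels, so the intervals describe it and do not test it. They treat reads as independent, although 1 clone held 100 of the 370 reads in DNP4 and 1 clone 74 of the 159 in DNP5. The lowest of the 4 abundant animals, DNP1, had an interval of 714 to 1029 RPM, and the highest of the other 6, HuD5, one of 162 to 296 RPM. In descending order of level, the intervals of DNP5 and DNP4 overlapped, as did those of DNP3 and DNP1, and from HuD5 down to HuD3 each animal overlapped with the next. Fitted over the 81 IGHV genes with at least 100 reads, edgeR put the log2 fold change of HuD over DNP at -3.72, against a median of 0.13 over these genes, and without DNP2 at -4.00. Among the 81 genes, IGHV2-8 ranked 58 by its mean RPM.

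**Figure D1:**
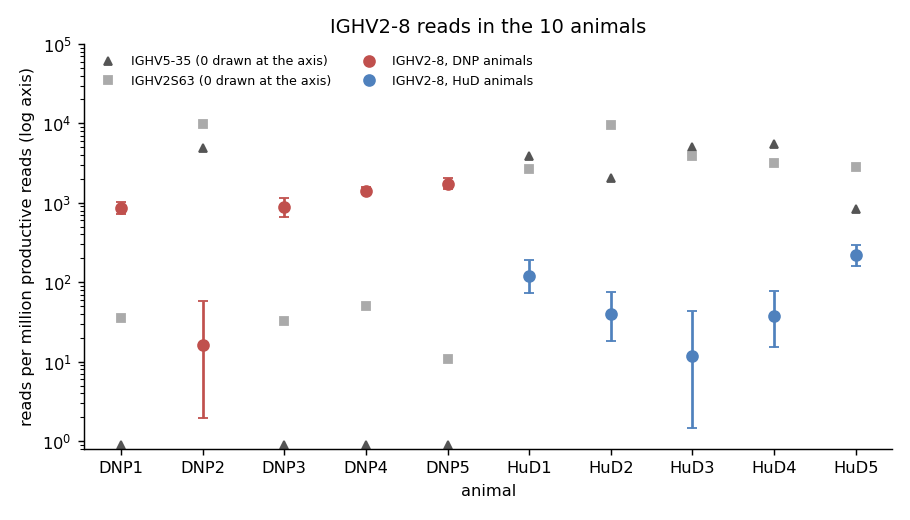
RPM (log axis) of IGHV2-8 in each animal, with exact Poisson intervals of 95% (circles), and of IGHV5-35 (triangles) and IGHV2S63 (squares). IGHV2-8 has 861 to 1735 RPM in DNP1, DNP3, DNP4 and DNP5 and 11.9 to 222 RPM in DNP2 and the HuD animals, where IGHV5-35 is present.

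DNP2 was below the other DNP animals in the genes most like IGHV2-8. These genes were picked by their correlation over the 10 animals, DNP2 among them, so its low level there follows in part from the choice. The genes whose log2(RPM + 10) followed that of IGHV2-8 most closely over the 10 animals were IGHV5S11 with a Pearson r of 0.88, IGHV1-43 with 0.88 and IGHV2S18 with 0.77. Without DNP4 and DNP5, the 2 animals farthest from the median IGHV2-8 level, the values were 0.84, 0.88 and 0.66. IGHV5S11 held 13216 to 37995 RPM in DNP1, DNP3, DNP4 and DNP5, 549 RPM in DNP2 and 445 to 833 RPM in the HuD animals. IGHV1-43 held 3901 RPM in DNP2, 19531 to 59846 RPM in the other DNP animals and 2368 to 13109 RPM in the HuD animals. IGHV2S18 held 32.3 RPM in DNP2, 660 to 982 RPM in the other DNP animals and up to 445 RPM, in HuD2, among the HuD animals.

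The opposite pattern was complete for 5 genes, which had no read in DNP1, DNP3, DNP4 and DNP5 and at least 6 reads in each other animal. These genes, looked for after the values of IGHV2-8 had been seen, were IGHV5-35, IGHV5-36, IGHV5-43, IGHV5-54 and IGHV2S75. IGHV5-35, with the most reads among them, had 606 reads in DNP2 and 173 to 1025 in the HuD animals. In DNP4, the deepest library, 0 reads allow a level of up to 11.5 RPM. IGHV2S63, which was not at 0, had 10.9 to 50.0 RPM in these 4 animals against 9887 RPM in DNP2 and 2675 to 9445 RPM in the HuD animals. The 5 genes were picked by this pattern among the 81 genes, and IGHV2S63 by its negative correlation with IGHV2-8. Their opposite course to IGHV2-8 across the animals therefore follows from the choice. The part that this difference in genes between the animals has in the IGHV2-8 levels was not tested. Fewer cells that express a gene and less RNA per cell cannot be told apart in these libraries.

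Unproductive reads, in which the rearrangement does not give an open heavy chain, had no part in the selection of reads. IGHV2-8 was named in 5, 0, 1, 14 and 9 unproductive reads from DNP1 to DNP5 and in 1, 0, 1, 0 and 0 from HuD1 to HuD5. Scaled to RPM of the unproductive reads, the DNP animals had a mean of 539 ± 455 and the HuD animals one of 31.7 ± 43.5 (SD, n = 5 each). DNP2, with 12169 unproductive reads, again had none. Of these 31 reads, 12 had the CDR3 of a productive IGHV2-8 clone of the same animal, so that these are not independent of the productive reads.

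The IGHV2-8 reads of the 2 sets of animals also differed in sequence. Residues are numbered by IMGT, from 1 at the start of FR1, and each was compared with the most frequent residue over all IGHV2-8 clones, since no germline sequence was used here. At position 17, in FR1, glutamate was found in 666 of the 703 reads of DNP1, DNP3, DNP4 and DNP5, and in 2 of the 85 reads of DNP2 and the HuD animals. The latter had glutamine, E17Q, in 74 reads and no residue at this position in 9 incomplete reads. In DNP4, where 19 reads had glutamine, these made up most of the exceptions among the 4 animals with abundant IGHV2-8. Reads seen to have glutamate gave 841 to 1691 RPM in these 4 animals. They gave 4.45 RPM in HuD2, 4.82 RPM in HuD5 and no read in the other 4 animals. The residue of the incomplete reads is unknown. These were 1 of 2 reads in DNP2, 1 of 19 in HuD1, 4 of 9 in HuD2 and 3 of 7 in HuD4, against 6 of 703 in the animals with abundant IGHV2-8.

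**Figure D2:**
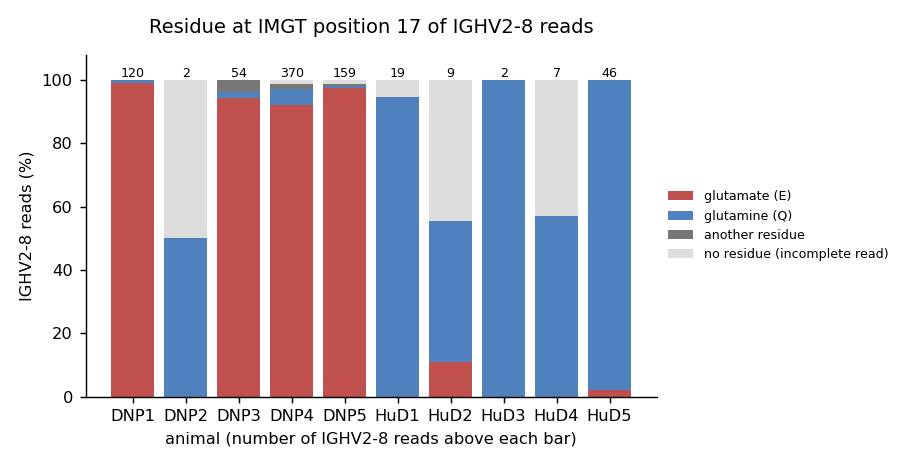
Share of IGHV2-8 reads (%) with glutamate, glutamine, another residue or no residue at IMGT position 17 in each animal, with the number of reads above the bars. Glutamate fills 92.2% to 99.2% of the bars of DNP1, DNP3, DNP4 and DNP5 and at most 11.1% of the others.

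Glutamine is the more common residue at this position in related genes. In the most frequent residues of the other 34 IGHV2 genes with at least 100 reads, position 17 was glutamine in 27 and glutamate in 7. The gene with the most similar residues was IGHV2-63, which differed from IGHV2-8 at 8 of 95 positions, namely T5K, E17Q, G36S, Y40S, L50P, R57W, N59D and S66A, with the residue of IGHV2-8 written before the position. IGHV2-34 differed at 9 positions and IGHV2S30 at 11, and the median over the 34 genes was 17.5. In IGHV2-63 glutamate at position 17 was found in 66.4% to 96.8% of the reads of DNP1, DNP3, DNP4 and DNP5, in 50.6% of those of DNP2 and in 19.0% to 77.2% of those of the HuD animals, so that these sets overlapped there. Whether the reads with glutamine derive from IGHV2-8 or from another gene was not tested.

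The 788 reads formed 304 clones, 263 in the DNP and 41 in the HuD animals, and most clones were small. A single read made up 215 clones, which is 70.7%, and 24 clones of at least 5 reads held 416 of the 788 reads. The DNP animals had 55, 2, 23, 137 and 46 clones, from DNP1 to DNP5, and the HuD animals 6, 8, 1, 7 and 19. In DNP2 and HuD4 every clone was a single read. Of all IGHV2-8 reads, 97.2% rested on a single sequenced copy, against 84.0% of the productive reads of other genes. The mean of the animals' copies per read was 1.008, the lowest of the 35 IGHV2 genes with at least 100 reads, whose median was 1.048. In the 14 genes with between 394 and 1576 reads in all, this mean ranged from 1.006 to 1.052.

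A few clones dominated IGHV2-8 in most animals. The largest, in DNP4, used IGHJ2 and the CDR3 TRSLSYTYYGYFDY and held 100 reads, 27.03% of the IGHV2-8 reads of this animal. In DNP5 the IGHJ2 clone ARDQANSGYLDY held 74 reads, or 46.5%, and in DNP1 the IGHJ2 clone TREVATSFDY held 24 of 120 reads. DNP3 was led by an IGHJ4 clone of 23 reads with a CDR3 of 16 residues, which was 42.6% of its IGHV2-8 reads. HuD5 was led by an IGHJ3 clone of 24 reads with a CDR3 of 17 residues, or 52.2%. HuD1 was led by the IGHJ2 clone ARGEKTPDY with 11 reads, or 57.9%. The leading clones of HuD2 and HuD3, TRDTMEGWFAY and AREYNNYFDY, held 2 reads each. The share of the 10 largest clones, which cannot fall below 100% in an animal with 10 clones or fewer, had a mean of 71.7 ± 19.5% for DNP and of 96.1 ± 8.75% for HuD (SD, n = 5 each), with an adjusted p of 0.190, and of 0.0635 without DNP2 (two-sided exact permutation tests). Reads per clone did not pass the test either, with a mean log2 of 1.12 ± 0.67 in the DNP and 0.82 ± 0.72 in the HuD animals and an adjusted p of 0.635 in the same exact test (n = 5 per group).

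**Figure D3:**
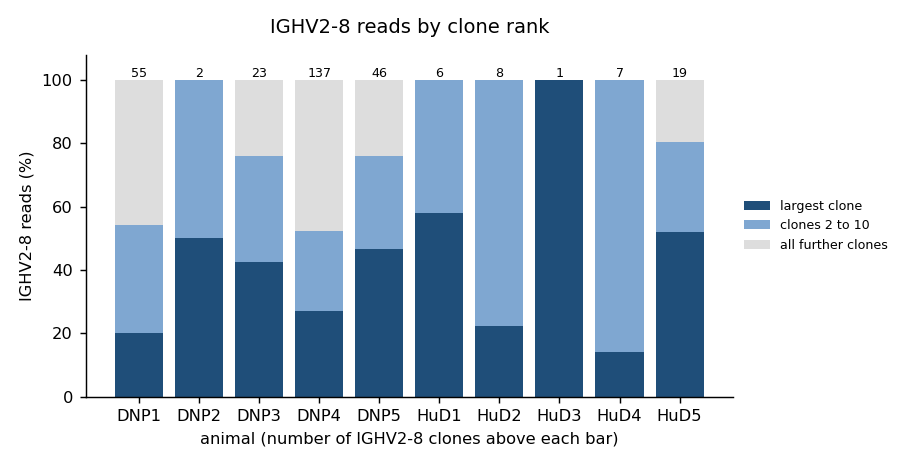
Share of the IGHV2-8 reads of each animal (%) in its largest clone, in the clones ranked 2 to 10 and in all further clones, with the number of clones above the bars. The largest clone ranges from a single read in DNP2 and HuD4 to 100 reads in DNP4, where it fills 27.03% of the bar.

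Several of the leading clones had CDR3s 1 residue apart in the same animal. Joining CDR3s of the same animal, IGHJ gene and length that were 1 residue apart gave 261 groups, of which 22 held more than 1 CDR3 and together 405 reads. The group of ARDQANSGYLDY in DNP5 held 8 CDR3s and 90 reads, among them ARDQSNSGYLDY with 9 reads. The group of TRSLSYTYYGYFDY in DNP4 held 7 CDR3s and 115 reads, among them ARSLSYTYYGYFDY with 8 reads, and that of ARGEKTPDY in HuD1 held 3 CDR3s and 15 reads. Reads within a clone differed as well. The 100 reads of the largest DNP4 clone carried 41 different variable domains, and the 74 reads of the largest DNP5 clone 22. Of these reads, 84 in the DNP4 clone and 73 in the DNP5 clone rested on a single sequenced copy. Mutations were therefore not told apart from PCR or sequencing errors, within clones or between CDR3s 1 residue apart. Of the DNP5 clone, 73 reads had the CDR1 GFSLTDYS, so that this clone gave most of the 128 reads with that CDR1.

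Many IGHV2-8 clones had a CDR3 that the annotation assigned more often to other genes. The animal, IGHJ gene and CDR3 of the 304 clones were found in 18937 productive reads, of which the 788 IGHV2-8 reads are 4.16%, and this share ranked 56 among the same shares of the 81 genes, with a median of 5.68%. IGHV2-8 held over 50% of the reads of 151 clones, and no other gene was named in 128. A CDR3 found in a single productive read passes both counts by itself. In DNP2, HuD2, HuD4 and HuD5 all clones that mostly named IGHV2-8 were of this kind. By reads, the share in clones that mostly named IGHV2-8 was 80.0% in DNP1, 92.6% in DNP3, 85.5% in DNP5 and 94.7% in HuD1, but 26.49% in DNP4 and 10.9% in HuD5. The difference between the animals remained on this count, with 377 to 1484 RPM in DNP1, DNP3, DNP4 and DNP5 and 8.08 to 115 RPM in the other 6.

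The genes named beside IGHV2-8 all belonged to the same subgroup among the 10 most frequent, with IGHV2-41 in 14.9%, IGHV2-13 in 14.0% and IGHV2-63 in 10.1% of the other 18149 reads. The largest DNP4 clone had 100 IGHV2-8 reads among 211, followed by 51 of IGHV2-63. The DNP4 clone TSDSLNSSSFVY had 12 IGHV2-8 reads beside 576 of IGHV2-63, and the HuD2 clone TRDTMEGWFAY had 2 beside 105 of IGHV2-63. In contrast, the largest DNP5 clone named IGHV2-8 in 74 of 84 reads and the largest DNP3 clone in 23 of 27.

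No IGHV2-8 CDR3 was shared between animals. The 303 distinct CDR3s each occurred in 1 animal, so the overlap was 0 in all 45 pairs of animals, within and between the immunogens, and a test of that difference had nothing to compare. Among the 14 genes of similar read number, 2 also shared no CDR3, and the median share of CDR3s found in more than 1 animal was 0.439%. Only 3 pairs of IGHV2-8 CDR3s from different animals were 1 residue apart, all between DNP animals. These were TSLPY of DNP4, with 13 reads, beside SSLPY and TSPPY of DNP1, with 4 and 2 reads, and TRDDF of DNP4 beside TRDDY of DNP3, with 1 read each. The DNP animals held 263 of the 304 clones. All 3 pairs had 5 residues, and the shortest CDR3 of the HuD animals had 6, so no HuD clone could match at this length.

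With other IGHV genes, 24 of the 303 CDR3s, or 7.92%, were seen in another animal, of which 19 in an animal of the same immunogen and 9 in one of the other. The numbers of animals and reads that could match differ between these directions, and they were not tested against each other. The most widespread were the short TRDDY of DNP3, found in 5 other animals, and TRGFDY of DNP1, found in 4. Among clones of at least 5 reads, only TSLPY recurred, in 2 other DNP animals and there under 11 other IGHV genes.

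CDR3 length and IGHJ pairing of IGHV2-8 clones did not pass a test against those of other genes, which does not show that they are alike. The CDR3s ranged from 5 to 24 residues with a median of 12, and their mean was 12.3 ± 1.19 residues in the DNP and 11.7 ± 1.36 in the HuD animals (SD, n = 5 each), with an adjusted p of 0.635 in the two-sided exact permutation test. IGHJ2 was used by 51.5 ± 2.97% of the clones in the DNP and 60.4 ± 30.4% in the HuD animals. IGHJ3 followed with 18.9 ± 11.3% and 23.2 ± 16.1%, IGHJ4 with 13.4 ± 9.82% and 9.96 ± 10.5%, and IGHJ1 with 16.2 ± 20.7% and 6.41 ± 6.76%. None of the 4 shares passed the exact permutation test between the immunogens, with an adjusted p of 0.635 for each (n = 5 per group). The spread of these shares was widest where clones were few, as HuD3 had 1 clone and DNP2 had 2, and without HuD3 the IGHJ2 difference turned from 8.92 to -0.98 percentage points. Without DNP2 the IGHJ1 difference moved from -9.76 to -1.30 points, the IGHJ3 difference turned from 4.335 to -0.39 points and the difference in CDR3 length moved from -0.56 to -0.12 residues.

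**Figure D4:**
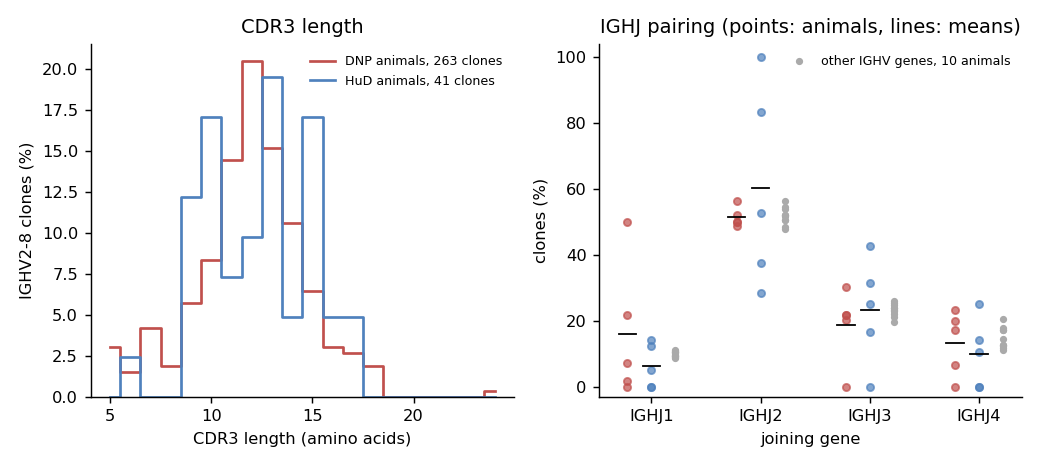
Left, share of IGHV2-8 clones (%) by CDR3 length in amino acids for 263 clones of the DNP and 41 of the HuD animals. Right, share of IGHV2-8 clones (%) with each IGHJ gene, as points for the 5 DNP (red) and 5 HuD (blue) animals with their means as lines, beside all other IGHV genes in the 10 animals (grey). The IGHV2-8 points scatter around the narrow grey range of each IGHJ gene.

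Within animals, the clones of IGHV2-8 were compared with those of all other IGHV genes by exact sign-flip permutation over the 10 animals. IGHV2-8 had fewer reads per clone, with a mean log2 of 0.97 ± 0.67 against 2.11 ± 0.32 (SD, n = 10), lower in 10 of 10 animals, with an adjusted p of 0.0156 in the exact permutation test. DNP2 and HuD3 had 2 IGHV2-8 reads each, so their log2 could not exceed 1. Other genes had 1.73 in DNP2 and 2.27 in HuD3, so both signs were fixed by the low read number. In the 8 animals with at least 5 clones the adjusted p was 0.0625 (exact permutation), the lowest that 8 animals can give for a lone result. The difference of -1.14 was -0.85 against the other IGHV2 genes, with an adjusted p of 0.0273. The 14 genes of similar read number had between 1.79 and 4.87 reads per clone over all animals, with a median of 2.52, and IGHV2-8 had 2.59. CDR3 length differed by -0.09 residues, with an adjusted p of 0.871, and the 4 IGHJ shares by -3.12 to 4.12 percentage points, with adjusted p of 0.719 or higher in the exact permutation test. Among clones that mostly named IGHV2-8, CDR3 length differed by -0.63 residues and the IGHJ shares by -6.33 to 10.8 points, with adjusted p of 0.203 or higher (exact permutation).

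The CDR3s of IGHV2-8 often began with threonine and arginine. The start TR was found in 47.0% of the IGHV2-8 clones and in 13.7% of the clones of other genes. By animal, TR began 43.5% to 54.0% of the IGHV2-8 clones of the DNP animals and 0% to 28.6% of those of the HuD animals, while in the other IGHV2 genes it began 17.2% to 27.8% in the 10 animals. These starts were looked at after the CDR3s had been seen and were not tested. IGHD1-2 was named in 12.8% of the clones, IGHD4-3 in 11.5% and IGHD1-11 in 11.2%, and no other IGHD gene reached 7%.

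Outside CDR3, IGHV2-8 reads differed from the most frequent residues at a median of 5 of 95 positions, with a range of 0 to 27. Of the reads, 28 had all of the most frequent residues. Counting each clone once, the DNP animals had 6.23 ± 1.20 differences per 100 residues and the HuD animals 9.33 ± 0.99 (SD, n = 5 each), with an unadjusted p of 0.0159 and an adjusted p of 0.127 in the two-sided exact permutation test. By animal the values were 6.47, 7.93, 4.68, 5.60 and 6.47 from DNP1 to DNP5 and 10.4, 9.97, 7.90, 8.78 and 9.66 from HuD1 to HuD5, so that only DNP2 and HuD3 overlapped. Without DNP2 the difference was 3.53, with an adjusted p of 0.0635 in the exact permutation test. The DNP animals gave 263 of the 304 clones that set the reference residues. Other references were added after the data had been seen. With the 10 animals weighted equally, which changed 1 reference residue, the difference was 1.63, from means of 8.54 for HuD and 6.91 for DNP, with an unadjusted p of 0.0318 and an adjusted p of 0.190 (exact permutation). With reference residues from the HuD clones only, it turned from 3.10 to -0.80, so its direction depends on the reference.

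Averaged over the animals, differences were more frequent in the CDRs than in the framework regions, as they were in the other IGHV genes. CDR1 and CDR2 had 13.03 ± 5.12 differences per 100 residues against 6.82 ± 1.76 in FR1 to FR3 (SD, n = 10), higher in 9 of 10 animals, with an adjusted p of 0.0234 in the exact sign-flip permutation test. The exception was DNP4, with 5.05 in the CDRs and 5.68 in the framework regions. The widest gaps were in HuD3, with 20 against 5.625 from 1 clone, and DNP2, with 18.75 against 6.42 from 2 clones. In the other IGHV genes, the 10 animals had 13.2 to 18.7 in the CDRs and 4.02 to 6.69 in the framework regions. Pooled over all clones, the mean share of other residues per position was 8.66% in FR3, 8.12% in CDR2 and 6.74% in CDR1. It was 4.46% in FR2 and 2.94% in FR1. Among clones that mostly named IGHV2-8 the difference between CDRs and framework fell from 6.20 to 2.92, with an adjusted p of 0.234, and the call was lost. IGHV2-8 did not pass the test against the other IGHV genes, each with its own reference, with 7.78 ± 1.94 against 6.92 ± 1.01 differences per 100 residues and an adjusted p of 0.719 (exact permutation, n = 10). This mean joins opposite directions, since IGHV2-8 was higher than the other genes in the 5 HuD animals and DNP2, as in HuD1 with 10.4 against 5.54, and lower in DNP1, DNP3, DNP4 and DNP5, as in DNP3 with 4.68 against 8.68. The difference from the other genes was 4.62 higher for HuD than for DNP, with an unadjusted p of 0.00794 and an adjusted p of 0.0556 over 7 such contrasts (two-sided exact permutation), and it rests on the same reference residues.

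Position by position, the 10 sites with the highest share of clones with another residue, averaged over the animals, were positions 17, 97, 85, 36, 40, 38, 66, 100, 57 and 59. The share was 59.4% at position 17, 55.9% at position 97, 50.6% at position 85 and 37.4% at position 36. Each animal counts equally in these means, also HuD3 with 1 clone and DNP2 with 2. Pooled over all clones, the shares were 14.67%, 40.85%, 29.55% and 22.43% in the same order. The single exchanges below are shares on this pooled count. Positions 97 and 85 lie in FR3, and their most frequent exchanges were D97E, in 37.1% of the clones, and N85S, in 25.8%. Position 36 lies in CDR1, where G36D was found in 11.6% of the clones, and position 40, at the start of FR2, carried Y40F in 22.1%. Positions 57 and 59 lie in CDR2, with R57W in 7.39% and N59D in 10.7% of the clones. The remaining sites were S38N with 3.46%, S66A with 13.1% and G100A with 33.0%.

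Of the 95 positions, 71 had another residue in at least 1% of the clones on average and were tested between the immunogens, and 0 passed the two-sided exact permutation test after adjustment, a called share of 0%. At least 12 positions would have had to reach the smallest p for any to pass. The lowest adjusted p was 0.376, and 8 positions had an unadjusted p under 0.05. At position 97 the animals did not overlap, with 15.4% to 50.0% of clones with another residue in the DNP and 57.1% to 100% in the HuD animals, and an unadjusted p of 0.00794, the smallest that 5 against 5 animals can give in this exact test. It was the only position without overlap. The values that lie closest rest on few clones, with 2 in DNP2 at 50.0% and 7 in HuD4 at 57.1%. HuD3, at 100%, had 1 clone. At position 17 the group means were 22.8% in the DNP and 96.0% in the HuD animals, and the unadjusted p was 0.0476 in the exact permutation test. DNP2, at 100%, had a residue there in 1 read, and 4 of 9 reads in HuD2 and 3 of 7 in HuD4 had none. Position 85 had 23.4% and 77.7%, and position 36 had 15.3% and 59.6%, each with an unadjusted p of 0.0159 (exact permutation). Without DNP2, 0 positions passed the adjustment and 14 had an unadjusted p under 0.05.

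**Figure D5:**
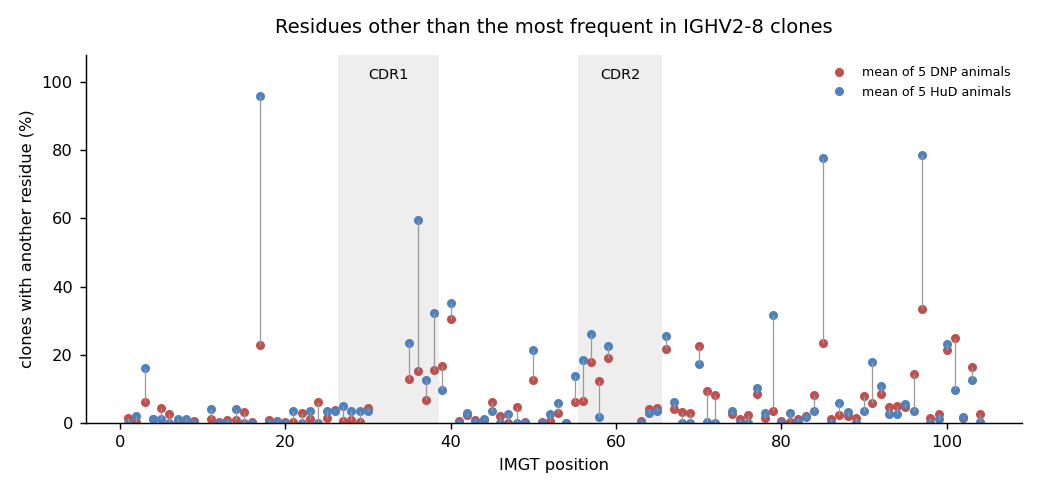
Share of IGHV2-8 clones (%) with a residue other than the most frequent one at each IMGT position, as the mean of the 5 DNP (red) and the 5 HuD (blue) animals joined by a line. CDR1 and CDR2 are shaded. The widest gap is at position 17, with 22.8% and 96.0%, and the next widest lie at positions 85, 97 and 36.

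Reads in which no glutamate was seen at position 17 were not alike in the 2 sets of animals at positions 85 and 97. They include incomplete reads with no residue at position 17, 6 in the 4 DNP animals and 9 in DNP2 and the HuD animals. In DNP1, DNP3, DNP4 and DNP5 there were 37 such reads in 28 clones. With each clone given equal weight, 14.3% of them had another residue at position 85 and 11.6% at position 97. For such reads of DNP2 and the HuD animals the shares were 75.0% and 78.6%, and for the reads with glutamate of the 4 DNP animals 22.03% and 35.1%. The sets are sets of reads and share clones. Of the 261 clones of the 4 DNP animals, 251 held reads with glutamate and 28 held the other reads, so some are counted in both. Position 36 gave another order, with 33.9% for the reads without a seen glutamate of the 4 DNP animals and 59.6% for those of DNP2 and the HuD animals. For the reads with glutamate of the 4 DNP animals the share was 15.5%. The differences per 100 residues were 10.1, 9.60 and 5.60 in the same order. These values describe 28 clones and were not tested.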

How the data were processed

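Heavy chain variable domains were sequenced from splenocyte RNA of 10 rats, 5 per immunogen, grouped by the sample labels. The authors merged read pairs with PEAR, used MIGEC to collapse copies that carry the same UMI and section of CDR3, and had High-VQuest annotate the result. In the deposited counts each number gives the sequenced copies behind 1 collapsed sequence. Every collapsed sequence was taken as 1 read, with the deposited genes, amino acid segments and productive status. Tool versions were not stated, and no germline sequence of IGHV2-8 was used here. Depth was 60647 to 259834 productive reads per animal. Where several IGHV genes were named, the gene named before the others was used.

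The gene and the properties described were chosen with earlier results of these data known. Usage was fitted with edgeR 4.0.16 (TMM, quasi-likelihood) in R 4.3.3 over genes with at least 100 reads. This fit had been planned as a test, and only its fold change is given, because the gene was chosen for its usage. Properties between immunogens were tested over the 252 relabellings of the animals, and within animals over 1024 sign patterns, with a smallest p of 0.00794 and 0.00195. Benjamini-Hochberg adjustment was over 8 properties in each family, or over positions, with a threshold of 0.05. The alignment columns of CDR1 and FR3 that exceed the IMGT numbering hold no residue in IGHV2-8 reads. CDR3s of 15 or more residues are named by length. Named were the largest clones of each animal, the 10 positions with most other residues, the 3 genes closest in usage and any CDR3 shared by animals, and other clones and genes were named after their values had been seen. Settings with clones that mostly name IGHV2-8, with animals of at least 5 clones and with other reference residues were added after seeing the data. Alternatives used limma 3.58.1 and DESeq2 1.42.0. The functions, in Python 3.11.15 with numpy 2.4.6, pandas 2.3.3 and scipy 1.17.1, were tested on simulated data, and matplotlib 3.10.9 drew the figures.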

Additional observations from a re-analysis of the deposited data

Results flagged for a closer look

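The share of IGHV2-8 reads in the 10 largest clones was 80.4% in HuD5 and 100% in the other 4 HuD animals, so HuD5 stood apart from its group. It was the only HuD animal with more than 10 IGHV2-8 clones, and the share is fixed at 100% in the other 4.

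Unproductive reads, which lie outside the productive reads of the main measurement, named IGHV2-8 above the 3 reads that a count of 0 allows in 3 animals, with 5 reads in DNP1, 14 in DNP4 and 9 in DNP5.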

How the results depend on the processing

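Over 288 alternatives of 17 results, 255 kept the direction and, where a test was run, the side of the threshold. For usage, which carries no test, a fold counted as kept when its sign held and it moved by less than 2.003. This limit is the pooled SD of log2(RPM + 10) within the groups. The log2 fold of IGHV2-8 usage was -2.99 with limma, -3.13 with clones as the unit and -3.64 with DESeq2, and -4.58 to -3.48 without single animals. Same-numbered animals are different animals, and their usage deviations correlated between -0.144 and 0.289. With the number as a replicate block the fold was -3.50, the difference in residue differences 3.10 and the called positions 0, and no call changed. The replicate block cannot give p below 0.0625.

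The called differences were lost in smaller sets. With clones of at least 2 reads, reads per clone against other genes differed by -1.49 (adjusted p = 0.0625) and CDRs against framework by 7.36 (adjusted p = 0.0938, exact sign-flip permutation). With animals of at least 5 clones they differed by -1.05 and 4.42, and 8 animals cannot give an adjusted p below 0.0625 for a lone result. The CDR difference was 2.92 among clones that mostly name IGHV2-8.

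No difference that changed sign had passed a test. The IGHJ2 difference between immunogens was -4.43 with each read once, -18.5 with clones of at least 2 reads, -2 after thinning, -1.35 with animals of at least 5 clones and -3.95 in clones that mostly name IGHV2-8. The IGHJ1 difference was 0.30 and 9.91 in the last of these settings, reads per clone 0.20 on the log2 scale after thinning, CDR3 length 0.31 with animals of at least 5 clones, and residue differences -0.80 with the HuD reference and 1.63 with animals weighted equally, where the sign was kept. Against other genes, CDR3 length differed by 0.38 with each read once, IGHJ1 by -5.33 and IGHJ3 by 11.1 with clones of at least 2 reads, IGHJ3 by 2.07 against IGHV2 genes, IGHJ1, IGHJ2 and IGHJ3 by -2.05, -1.08 and 3.31 with animals of at least 5 clones, and residue differences by -0.56 with clones of at least 2 reads and -1.33 in clones that mostly name IGHV2-8. The cause was not tested.

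Without single animals, the differences between immunogens ranged from 19.5 to 31.4 points for the 10 largest clones, -0.57 to -0.09 for log2 reads per clone, -0.92 to -0.12 for CDR3 length, -13.8 to -1.30, -0.98 to 16.9, -0.57 to 10.1 and -7.25 to -1.001 points for IGHJ1 to IGHJ4 and 2.72 to 3.53 for residue differences. Against other genes they ranged from -1.24 to -1.05 for reads per clone, -0.27 to 0.14 for CDR3 length, -3.03 to 2.67, -1.20 to 7.67, -4.94 to 0.27 and -4.99 to -1.57 points for IGHJ1 to IGHJ4, 0.42 to 1.40 for residue differences and 5.30 to 6.96 for CDRs against framework. The called positions and the overlap are not among the 17 results: a lone position cannot get an adjusted p below 0.564, and leaving out reads or animals cannot create a shared CDR3, so their 0 says nothing about stability. Thinning to 2 reads gives 100% in the 10 largest clones by construction and was not run for that share. In 6 animals, 2 to 46 reads limit what can be detected.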
